A study of Macaca fascicularis with 23 samples.

Results

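POU5F1 (also called OCT3/4), SOX2 and HESX1 are 3 genes for DNA-binding transcription factors, and they are described here in every library of the series. They were taken by name from the deposited expression table, as 3 of the 8415 genes analysed, with gene identifiers 102115117, 102140202 and 102125054. The members were chosen by their RPM in the differentiated and naïve-like libraries, where POU5F1 and HESX1 were known to be low, and SOX2 high, in differentiated cells, so their differences between the conditions are given as a description without a test, those between primed and naïve-like cells included, since the naïve-like libraries also entered the choice.

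POU5F1, a POU-domain factor, and SOX2, an HMG-box factor, bind DNA side by side at many genes of pluripotent cells. POU5F1 is largely restricted to pluripotent and germline cells, whereas SOX2 is also a factor of the neural lineage. HESX1 is a paired-type homeobox repressor that is best known for its part in forming the anterior forebrain and the pituitary gland, and its transcript is also found in pluripotent cells and the epiblast.

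The study asked how far primed pluripotent stem cells (PSCs) of the cynomolgus monkey (Cm, Macaca fascicularis) can be brought towards a naïve state. Transcripts were counted from their 3′ ends by SC3-seq in 23 libraries, of which 21 came from 7 PSC lines grown in each of 3 media (n = 1 library for a line in a medium) and 2 from somatic cells of liver and stomach. 3 lines were embryonic (CMK6, TRSK, CMK9), and 4 were iPSC lines of a single foetus, reprogrammed from its liver (iPS-L3, iPS-L6) or its stomach (iPS-S6, iPS-S12) with episomal vectors for KLF4, L-MYC, LIN28, SOX2, OCT3/4 and a p53 hairpin. bFGF/KSR medium kept cells primed, K5cLD medium kept them naïve-like after PiggyBac vectors for doxycycline (Dox)-inducible human KLF2 and NANOG and an EOS reporter had been introduced, and K5c medium, without LIF and Dox, let naïve-like cells differentiate. All 7 lines therefore carried the transgenes in the naïve-like and the differentiated condition, and the change of medium and the presence of the transgenes cannot be told apart between primed and naïve-like cells. The study also detected the episomal OCT3/4 vector in genomic DNA of iPS-L3, iPS-L6 and another iPSC line, which its main text gives as iPS-S6 and its supplement as iPS-S12. By RT–PCR the study also reported RNA of the exogenous gene in iPS-L3 and iPS-S6. Its main text calls this expression persistent and its supplement calls it slight. Whether reads of the episomal vector, or of processed copies of POU5F1 elsewhere in the genome, entered the POU5F1 value was not tested.

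Values are RPM, mapped reads of a gene scaled by the library total. The RPM of the 8415 analysed genes summed to 24.8% to 27.5% of each library, so the analysed rows covered only part of the transcripts. Shares of all genes below refer to the tested genes of these rows. Differences are on the log2(RPM + 1) scale, which understates the change of low genes. The libraries held 861000 to 7986000 reads (median 3004000) as derived from the smallest step between values, so that 3 reads, taken as the limit of detection, stood for 0.376 to 3.49 RPM. The 18 analysed genes of a pluripotency list summed to 1145.7 to 2735 RPM in the PSC libraries under primed and naïve-like conditions. The differentiated libraries, at 1258 to 2057 RPM, lay within this range, so the sum did not set them apart. LIN28A alone held 349 to 1545 RPM in primed and naïve-like cells. The sum was 147 RPM in the liver library, of which ZNF281 and REST held 73.4 and 70.4 RPM, and 255 RPM in the stomach library. The study's supplement describes liver and stomach cells of a female foetus that were dissociated, plated and cultured with serum and growth factors. In the liver library the hepatocyte genes ALB, AFP and APOA2 were at 0 and the collagen gene COL1A2 was at 4832 RPM. This library thus did not show these hepatocyte markers, and the part of culture in its levels was not tested. The stomach library held the gastric peptide genes TFF1 (89.5 RPM) and TFF2 (166 RPM) beside COL1A2 at 4506 RPM. These are bulk samples, in which fewer cells that express a gene and less of its RNA per cell cannot be told apart.

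**Figure D1:**
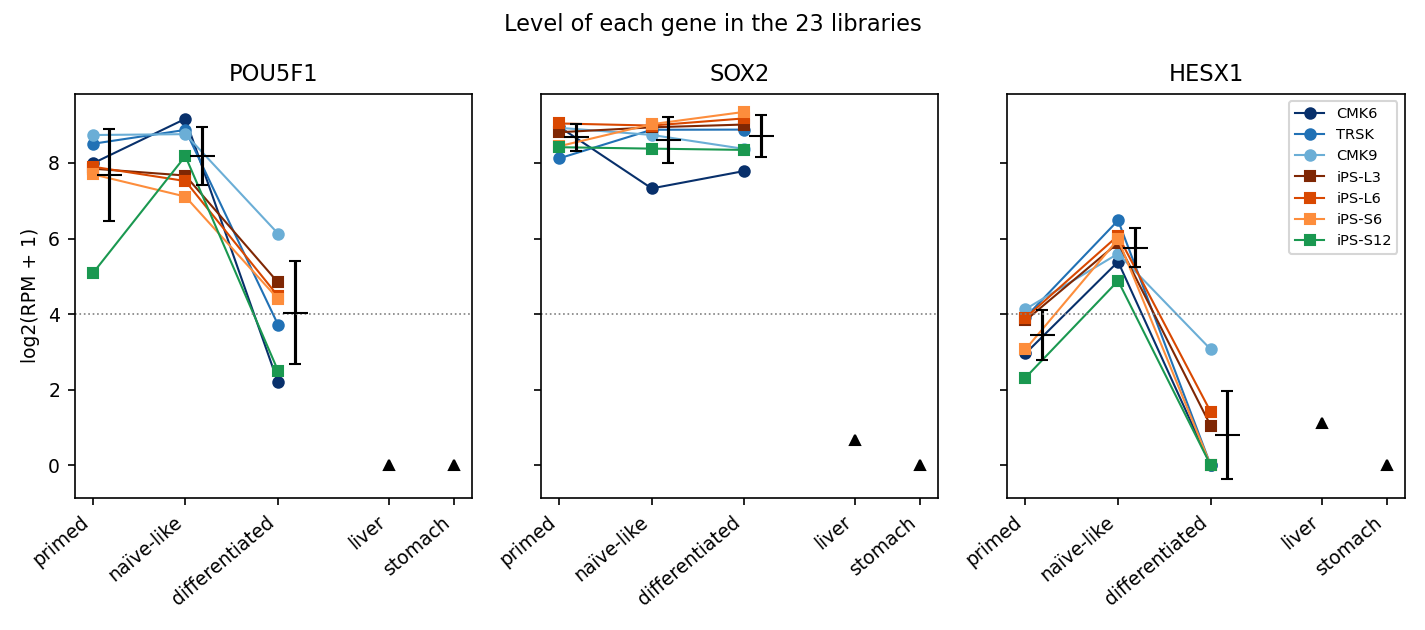
Level of POU5F1, SOX2 and HESX1, as log2(RPM + 1), in each library. Coloured points joined by lines are the 7 PSC lines (circles ESC, squares iPSC), black bars are the mean and SD of 7 lines, triangles are the single liver and stomach libraries, and the dotted line is the expression threshold of 4. SOX2 lay between 7.33 and 9.35 in all 21 PSC libraries, POU5F1 was low in the differentiated condition, and HESX1 was highest in the naïve-like condition.

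POU5F1, the core factor of the pluripotent state, was abundant in primed and naïve-like cells alike. In primed cells it stood at 253 RPM in CMK6, 363 in TRSK, 427 in CMK9, 229.7 in iPS-L3, 238 in iPS-L6, 207 in iPS-S6 and 32.8 in iPS-S12. In naïve-like cells the values were 575 RPM in CMK6, 469 in TRSK, 433 in CMK9, 202 in iPS-L3, 183 in iPS-L6, 137 in iPS-S6 and 289 in iPS-S12. The primed iPS-S12 library stood far below the other primed libraries, and apart from it the ranges of the groups overlapped. On the log2 scale the means were 7.68 ± 1.21 in primed and 8.18 ± 0.78 in naïve-like cells (SD, n = 7 lines). The difference was 0.50 (SE 0.54). It was positive in 4 of 7 lines with a median change of 0.02, and without the primed iPS-S12 library it was 0.07. The lines with a negative change were iPS-L3 (-0.18), iPS-L6 (-0.38) and iPS-S6 (-0.59). For conversion the study reported increased POU5F1 by quantitative RT–PCR in CMK6 and in the iPSC lines. Among these lines, the single libraries here showed a higher level only in CMK6 (1.18) and iPS-S12 (3.10).

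The primed iPS-S12 library was low in more than POU5F1. It held the lowest primed value of 8 of the 14 tested genes of the pluripotency list that were above 0 in primed cells. Among them were DPPA4, a chromatin factor of pluripotent cells, at 36.3 RPM against a primed median of 119.7, and L1TD1, an RNA-binding protein of the same cells, at 19.9 against 113. Other genes of the list went the other way. LEFTY2 (108.7 RPM against a primed median of 31.4) and LIN28B (186.5 against 142.8) had their highest primed value in the iPS-S12 library. SOX2 in that library, at 341 RPM, lay within the range of the other primed lines. The summed stromal markers of the library, 295 RPM, also lay within the primed range of 63.9 to 829 RPM. The part of cell composition in the low values was not tested.

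After withdrawal of LIF and Dox, POU5F1 was low in every line and still detected in each. It measured 3.59 RPM in CMK6, 12.2 in TRSK, 69.2 in CMK9, 27.6 in iPS-L3, 21.3 in iPS-L6, 20.2 in iPS-S6 and 4.68 in iPS-S12, from 11 to 328 reads. The highest differentiated library, CMK9, lay above the primed iPS-S12 library and below every naïve-like library. Differentiated libraries that all lay below all naïve-like libraries were seen for 2.92% of tested genes. The mean of 4.04 ± 1.37 (SD, n = 7) differed by -4.14 (SE 0.54) from naïve-like cells and by -3.64 (SE 0.54) from primed cells. Within lines the decrease from naïve-like cells was 6.27-fold in CMK9, 6.80-fold in iPS-S6, 7.33-fold in iPS-L3 and 8.58-fold in iPS-L6. It was 38.4-fold in TRSK, 61.9-fold in iPS-S12 and 160.1-fold in CMK6. The last 3 lines thus stood apart from the other 4 by size of decrease, and they included ESC and iPSC lines. POU5F1 was at 0 in the liver and stomach libraries, where the limit of detection was 1.76 and 0.973 RPM.

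SOX2, the partner of POU5F1, was abundant in all 3 media, and its means lay within 0.09 of each other on the log2 scale. Its lowest, median and highest values were 277 (TRSK), 449 and 528 RPM (iPS-L6) in primed cells. They were 159.6 (CMK6), 469.9 and 521 RPM (iPS-S6) in naïve-like cells, and 220.0 (CMK6), 471 and 653 RPM (iPS-S6) in differentiated cells. The 3 groups overlapped over most of their range. The means were 8.68 ± 0.35, 8.61 ± 0.61 and 8.71 ± 0.56 (SD, n = 7 each). The naïve-like mean differed from the primed mean by -0.06 (SE 0.25), and without CMK6 the sign turned, to 0.20. The differentiated mean differed from the naïve-like mean by 0.09 (SE 0.25). SOX2 was below the limit of detection in the liver library (1 read) and at 0 in the stomach library.

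The naïve-like CMK6 library held the lowest SOX2 value of all PSC libraries, 3.12-fold below primed CMK6. The other 6 lines differed by -0.19 to 0.76 on the log2 scale between these conditions. In the same library POU5F1 was at its highest value of the series, and the 7 analysed neural progenitor markers summed to 137 RPM, the lowest of the naïve-like libraries (median 319 RPM). CMK6 was also the lowest line for SOX2 after withdrawal. For conversion the study reported increased SOX2 by quantitative RT–PCR in CMK6 and in the iPSC lines. In the single libraries here SOX2 was lower after conversion in CMK6 and nearly unchanged in iPS-L6 (-0.06) and iPS-S12 (-0.04). It was higher in iPS-L3 (0.13) and iPS-S6 (0.58) on the log2 scale.

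HESX1 was higher in naïve-like than in primed cells in every line. In primed cells it stood at 6.77 RPM in CMK6, 14.1 in TRSK, 16.5 in CMK9, 13.2 in iPS-L3, 13.9 in iPS-L6, 7.38 in iPS-S6 and 3.99 in iPS-S12, on 9 to 132 reads. In naïve-like cells it stood at 40.9 RPM in CMK6, 88.3 in TRSK, 47.5 in CMK9, 58.2 in iPS-L3, 66.5 in iPS-L6, 62.2 in iPS-S6 and 28.5 in iPS-S12, on 55 to 233 reads. Every naïve-like library lay above every primed library. iPS-S12 was the lowest line in both conditions. The difference within lines ranged from 2.87-fold in CMK9 to 8.42-fold in iPS-S6 and had this direction in 7 of 7 lines. The means were 3.45 ± 0.67 and 5.76 ± 0.52 (SD, n = 7), with a difference of 2.31 (SE 0.42).

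Between primed and naïve-like cells 534 of 2776 tested genes (19.2%) passed the threshold, and naïve-like libraries that all lay above all primed libraries were seen for 2.41% of them. Nothing is read for HESX1 from these shares. HESX1 entered the fit, which needed a value above 4 on the log2 scale in at least 1 PSC library, through the 7 naïve-like libraries and primed CMK9. The difference ranged from 2.12, without the primed iPS-S12 library, to 2.45, without CMK9, over the alternatives.

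In differentiated cells HESX1 was listed at 0 in CMK6, TRSK, iPS-S6 and iPS-S12. It was at 1.06 RPM in iPS-L3 (1 read, under the limit of detection), 1.66 RPM in iPS-L6 (5 reads) and 7.38 RPM in CMK9 (35 reads). CMK9 was thus the only line with more than a few reads. Taking 3 reads for a library at 0, the decrease from naïve-like cells was at least 19.5-fold in iPS-S6, 32.5-fold in iPS-S12, 41.7-fold in CMK6 and 162-fold in TRSK. It was 6.43-fold in CMK9 and 39.95-fold in iPS-L6, and in iPS-L3 it was 54.7-fold with a 95% counting interval of 9.68 to 2176. The mean of 0.79 ± 1.16 (SD, n = 7) differed by -4.97 (SE 0.42) from naïve-like cells and by -2.66 (SE 0.42) from primed cells, values that depend on the pseudocount because 4 libraries were at 0. Among 2776 genes, 14.1% passed the threshold between differentiated and naïve-like cells and 13.4% between differentiated and primed cells (372 genes, or 585 with the line as a replicate block). These contrasts served to choose the genes, so nothing is read from their place among the others. HESX1 was under the limit of detection in the liver library (2 reads) and at 0 in the stomach library.

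Whether HESX1 kept a fixed distance from POU5F1 was asked with the difference of their log2(RPM + 1) values in each library. In primed cells the lowest difference was -5.03 (CMK6) and the highest -2.76 (iPS-S12), and in naïve-like cells they were -3.78 (CMK6) and -1.13 (iPS-S6). The means were -4.23 ± 0.75 and -2.43 ± 1.02 (SD, n = 7). HESX1 was thus closer to POU5F1 by 1.81 on average in naïve-like cells. The change was positive in 6 of 7 lines, from 1.25 in CMK6 to 3.50 in iPS-S6, and it was -0.54 in iPS-S12, the line whose primed POU5F1 was low. Without iPS-S12 the average change was 2.198. In the naïve-like condition the largest distance belonged to CMK6, which had the highest POU5F1, and the smallest to iPS-S6, which had the lowest. Because POU5F1 is itself a term of the distance, such an order follows in part from the definition, and nothing is read from it.

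**Figure D2:**
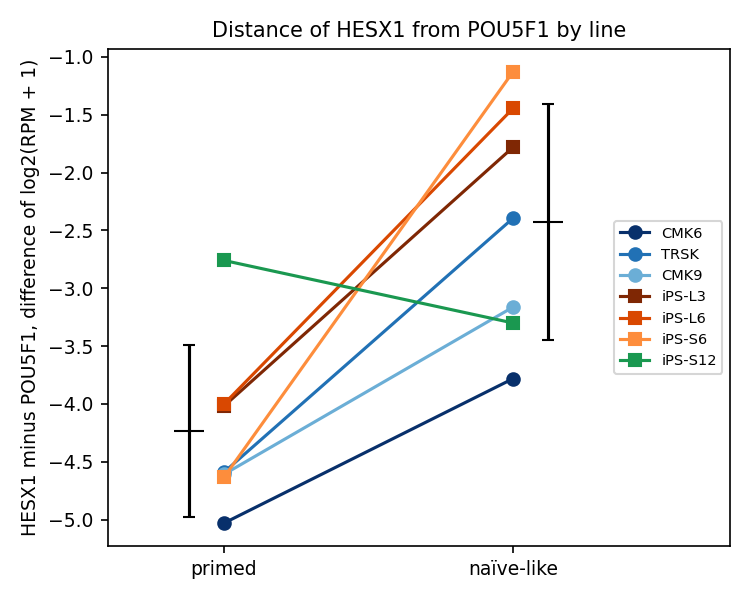
Difference between HESX1 and POU5F1, in log2(RPM + 1), in the primed and the naïve-like library of each line. Joined points are lines (circles ESC, squares iPSC) and black bars are the mean and SD of 7 lines. The difference grew less negative in 6 of 7 lines, and in iPS-S12 it moved from -2.76 to -3.30.

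Coupling between the genes was then examined across the 7 lines within each condition and across the within-line changes, giving 15 relations of log2 values tested by exact permutation of all pairings. None of the 15 passed the threshold after Benjamini-Hochberg adjustment, for Pearson's r or for Spearman's rho. The naïve-like and differentiated libraries also served to choose the genes. For all relations but those of primed levels, the p-values are therefore a description and no independent test. By Pearson's r the strongest were between POU5F1 and HESX1. In primed cells r was 0.83 (exact permutation p = 0.00972, adjusted p = 0.143) and rho was 0.79 (exact permutation p = 0.0480, adjusted p = 0.240). Without iPS-S12 and CMK9, the lines farthest from the POU5F1 median, r was 0.44, so the primed relation rested on these lines. Leaving out CMK6 raised r to 0.93 (exact permutation, adjusted p = 0.0208), the only instance among the alternatives in which a relation passed.

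In differentiated cells r between POU5F1 and HESX1 was 0.83 (exact permutation p = 0.0190, adjusted p = 0.143) and rho was 0.87 (exact permutation p = 0.0286, adjusted p = 0.214). Without CMK6 and iPS-S12, the farthest on POU5F1, r was 0.92. Without CMK9 it was 0.65. The 3 lines in which HESX1 was above 0 (CMK9, iPS-L3 and iPS-L6) were the 3 with the most POU5F1. iPS-S6 came next in POU5F1, at 20.2 RPM against 21.3 in iPS-L6, and its limit of detection of 3.18 RPM was above the HESX1 value of iPS-L6, so an equal level would not have been detectable at this depth.

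In naïve-like cells, where both genes were abundant, no such order was seen. The r between POU5F1 and HESX1 was -0.19 (exact permutation p = 0.682, adjusted p = 0.731) and rho was -0.29 (exact permutation p = 0.556, adjusted p = 0.744). The size of the HESX1 change on conversion showed no detectable relation to that of POU5F1 (r = 0.21, exact permutation p = 0.609, adjusted p = 0.731), and iPS-S6 joined the largest upward HESX1 change to the largest downward POU5F1 change. For the changes after withdrawal r was 0.40 (exact permutation p = 0.401, adjusted p = 0.713). With 7 lines, correlations of this size cannot be told from 0.

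**Figure D3:**
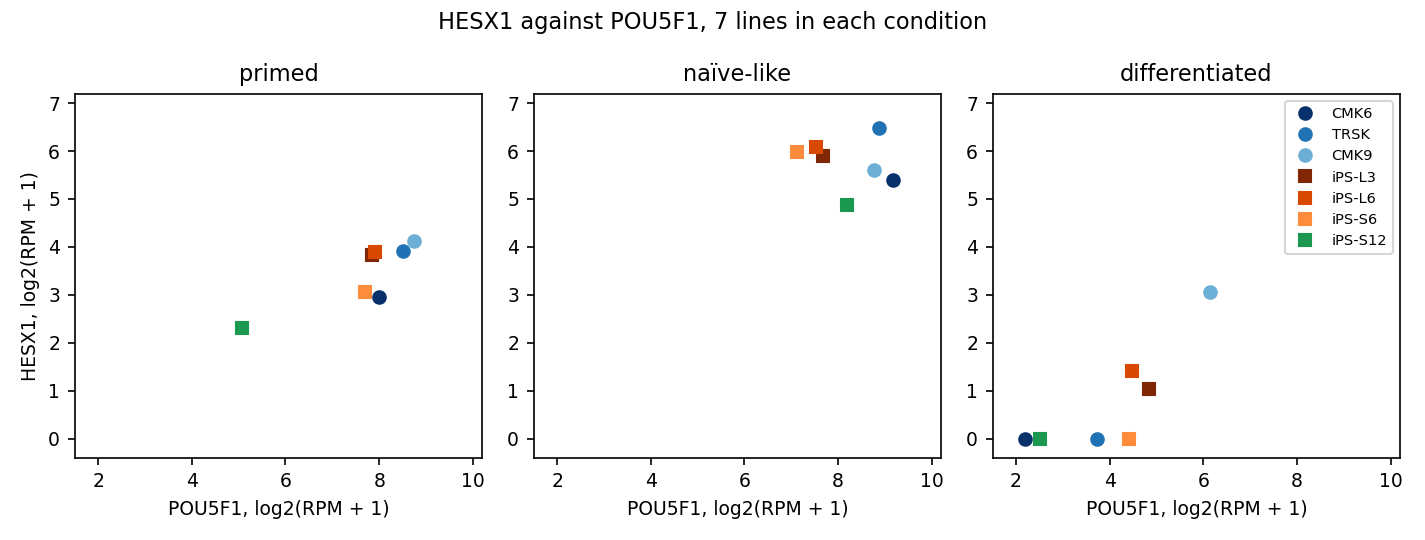
HESX1 against POU5F1, both as log2(RPM + 1), with 1 panel per condition and 1 point per line (circles ESC, squares iPSC). Primed iPS-S12 lies apart at the lower left, the naïve-like libraries form no line (r = -0.19), and in differentiated cells 4 lines lie at a HESX1 value of 0 with CMK9 highest on both axes.

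No relation of SOX2 with either of the other genes passed the threshold. Its r with POU5F1 was 0.27 (primed), -0.66 (naïve-like) and 0.48 (differentiated) (exact permutation p = 0.660, 0.0738 and 0.270). In naïve-like cells the order of the lines ran opposite for these genes, with rho at -0.86 (exact permutation p = 0.0238, adjusted p = 0.214), and r was -0.29 without iPS-S6 and CMK6. Its r with HESX1 was 0.27, 0.58 and -0.01 (exact permutation p = 0.551, 0.198 and 0.981), and the last value turned to 0.11 with a pseudocount of 0.1. For the changes on conversion r was -0.32 with POU5F1 and 0.22 with HESX1 (exact permutation p = 0.418 and 0.606). For those after withdrawal r was -0.36 with POU5F1 (exact permutation p = 0.428) and -0.67 with HESX1 (exact permutation p = 0.106, adjusted p = 0.396), and the last value was -0.89 without TRSK and -0.074 without CMK9.

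A further relation was looked at after the values had been seen, namely whether a line kept its rank for the same gene from condition to condition (9 relations). The naïve-like and differentiated libraries also served to choose the genes. The p-values of these relations are therefore a description and no independent test. SOX2 held the same order of all 7 lines in naïve-like and differentiated cells, from CMK6 through iPS-S12, CMK9, TRSK, iPS-L3 and iPS-L6 to iPS-S6. Its r was 0.90 (exact permutation p = 0.000198, adjusted p = 0.00179) and rho was 1 (exact permutation p = 0.000397, adjusted p = 0.00357). Without CMK6 and iPS-S12 r was 0.996 over 5 lines. The order in primed cells was another, with r at -0.26 against naïve-like cells (exact permutation p = 0.631, adjusted p = 0.811). For POU5F1 the r between naïve-like and differentiated cells was -0.30 (exact permutation p = 0.505, adjusted p = 0.811) and for HESX1 it was 0.03 (exact permutation p = 0.943, adjusted p = 0.943). HESX1 in primed and naïve-like cells had an r of 0.72 (exact permutation p = 0.0643, adjusted p = 0.289), which was -0.11 without iPS-S12 and CMK6.

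**Figure D4:**
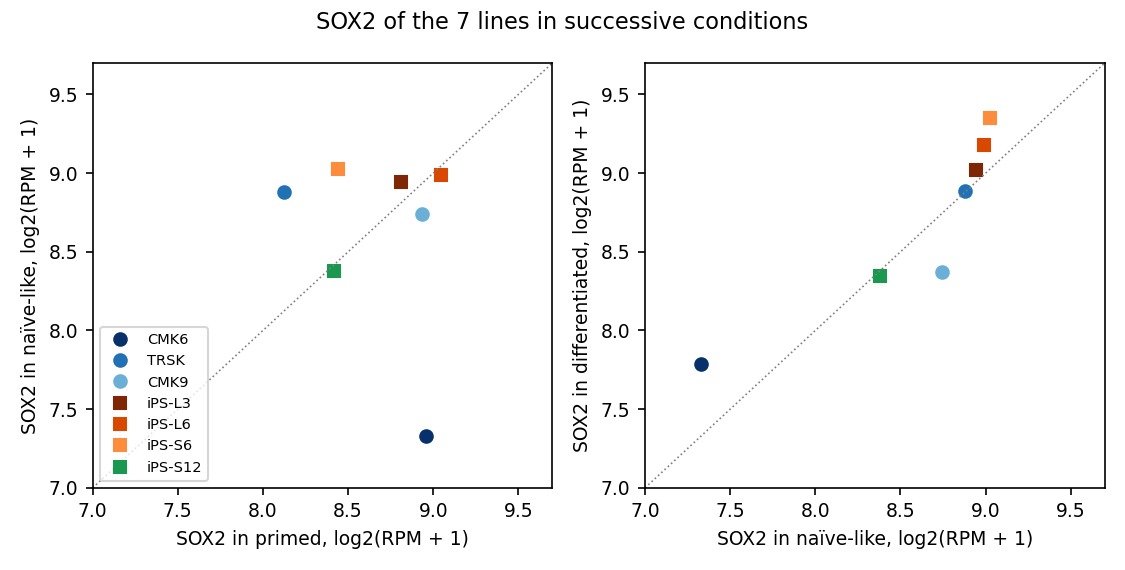
SOX2 of the 7 lines, as log2(RPM + 1), in naïve-like against primed cells (left) and in differentiated against naïve-like cells (right). Points are lines (circles ESC, squares iPSC) and the dotted diagonal marks equal levels. On the right the lines follow the same order on both axes (rho = 1), and on the left CMK6 lies far below the diagonal.

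ESC and iPSC lines were compared within each condition, with 3 against 4 lines. The 4 iPSC lines shared a donor, and p-values therefore measure the spread between lines and not between animals. Naïve-like POU5F1 was 433 to 575 RPM in the ESC lines and 137 to 289 RPM in the iPSC lines, and primed POU5F1 was 253 to 427 RPM against 32.8 to 238 RPM, both without overlap. Among all tested genes 5.01% in naïve-like and 5.4% in primed cells were lower in iPSC lines without overlap. The naïve-like difference of -1.32 (SE 0.71) did not pass the test over all genes (limma, adjusted p = 0.564), and neither did that in primed cells (-1.28, SE 0.71, limma, adjusted p = 0.401). In differentiated cells POU5F1 differed by 0.04 (SE 0.71), and the sign turned when any of 5 lines was left out. SOX2 differed by 0.01 in primed cells, 0.52 in naïve-like cells and 0.63 after withdrawal (SE 0.33 each), and HESX1 by -0.39, -0.12 and -0.41 (SE 0.62 each), and none of these passed the test. The share of all genes that did was 1.59% for primed, 0.72% for naïve-like and 0.612% for differentiated cells. A difference between ESC and iPSC lines in the response to conversion or to withdrawal passed the test for none of the 3 genes (limma interaction, adjusted p = 0.999 or above), and 0 of 2776 genes passed there (133 and 109 at an unadjusted p under 0.05).

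The genes whose pattern was most like that of each member were found among the 2776 tested genes by Pearson's r. It was taken over the 21 PSC libraries after the mean of each condition had been removed. Genes without an analysed row, such as NANOG, could not be ranked. The points share lines and libraries, so these values are a description. For POU5F1 the 5 highest were LOC102141120 (r = 0.83), DPPA4 (0.82), MOV10, an RNA helicase (0.79), L1TD1 (0.78) and FBXO2, a subunit of a ubiquitin ligase (0.77). HESX1 ranked 12 of 2775 for POU5F1 at 0.67, and SOX2 ranked 879 at 0.09. For HESX1 they were CRIPTO, the NODAL co-receptor (0.72), KCND2, a potassium channel (0.70), FAM19A4, a secreted peptide (0.68), POU5F1 (0.67) and DPPA4 (0.63). For SOX2 they were LOC102134736 (0.88), LOC102123638 (0.86), RGS5, a regulator of G-protein signalling (0.86), FAAP20, a protein of the Fanconi anaemia complex (0.86), and CLDN19, a claudin (0.83). No gene was among the 5 nearest of all 3 members, and DPPA4 was near both POU5F1 and HESX1. The 5 nearest to POU5F1 and the 5 nearest to HESX1 all had their lowest primed value in iPS-S12, as both members had. The 5 nearest to SOX2 were all lowest in CMK6 among naïve-like and among differentiated libraries, as SOX2 was. How far the ranks rest on these libraries was not tested.

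With the conditions left in, r also holds the differences between conditions that served to choose the members, so these values are a description only. CRIPTO was nearest to HESX1 (r = 0.95), followed by TMPRSS2, a serine protease (0.93), AK4, a mitochondrial adenylate kinase (0.91), KCND2 (0.89) and FAM19A4 (0.88). DPPA4 was nearest to POU5F1 (0.95), before MOV10 (0.94), L1TD1 (0.92), KCND2 (0.91) and CRIPTO (0.90). For SOX2, LOC102130517 (0.81) and the histone gene H3-3A (0.80) joined LOC102134736, FAAP20 and LOC102123638. The levels show how these patterns part. CRIPTO had mean log2 levels of 4.90 (primed), 6.74 (naïve-like) and 1.14 (differentiated), and AK4 had 5.69, 7.87 and 3.68, both highest in the naïve-like condition as HESX1 was. MOV10 had 4.77, 4.75 and 3.35, and DPPA4 6.61, 6.96 and 4.61, so that primed and naïve-like levels were close, as for POU5F1.

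CRIPTO varied less than HESX1 in naïve-like cells, from 89.1 RPM in iPS-S6 to 126 RPM in CMK6, and like HESX1 it had its lowest primed value in iPS-S12 (5.76 RPM against a median of 33.2). In differentiated cells it was at 0 in 3 lines and highest in CMK9 (9.07 RPM). CMK9 also held the highest differentiated value of DPPA4 (47.5 RPM). L1TD1 was highest in iPS-L3 at that stage (68.0 RPM).

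Among 48 genes of a pluripotency list 18 were analysed and 16 passed the expression threshold. Genes of this and the later lists that are not counted as analysed were not found by name among the analysed rows. NANOG was among them, and their expression could not be assessed. This list and those below were drawn up with earlier results of these data known, so their counts and p-values are a description. Between primed and naïve-like cells 2 of the 16 were higher, against 11.1% of all genes, and 1 was lower, against 8.18%. DPPA2, a partner of DPPA4, rose by 2.86 (SE 0.61, limma, adjusted p = 0.00221) and CRIPTO by 1.83 (SE 0.52, limma, adjusted p = 0.0172), each in 7 of 7 lines. LEFTY2, a NODAL antagonist, fell by 2.11 (SE 0.69, limma, adjusted p = 0.0347), and this was lost without the primed iPS-S12 library. The list's median was 0.31 against 0.06 for all genes.

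After withdrawal 7 of the 16 were lower and 0 higher than in naïve-like cells, against 7.71% and 6.41% of all genes, with a median of -1.10 against -0.02. CRIPTO fell by 5.59 (SE 0.52, limma, adjusted p = 9.41e-08), and NR5A2, a nuclear receptor (-2.78), DPPA4 (-2.35) and L1TD1 (-2.22) fell as well. The chromatin protein gene JARID2 (-1.23), REST, a repressor of neuronal genes (-0.97), and the zinc finger gene ZNF281 (-0.36) made up the rest. LIN28A and TRIM71, which act on RNA in stem cells, differed by -0.18 and -0.10 and did not pass the test. Against primed cells 8 of 16 were lower (7.13% of all genes) and 0 higher (6.27%).

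**Figure D5:**
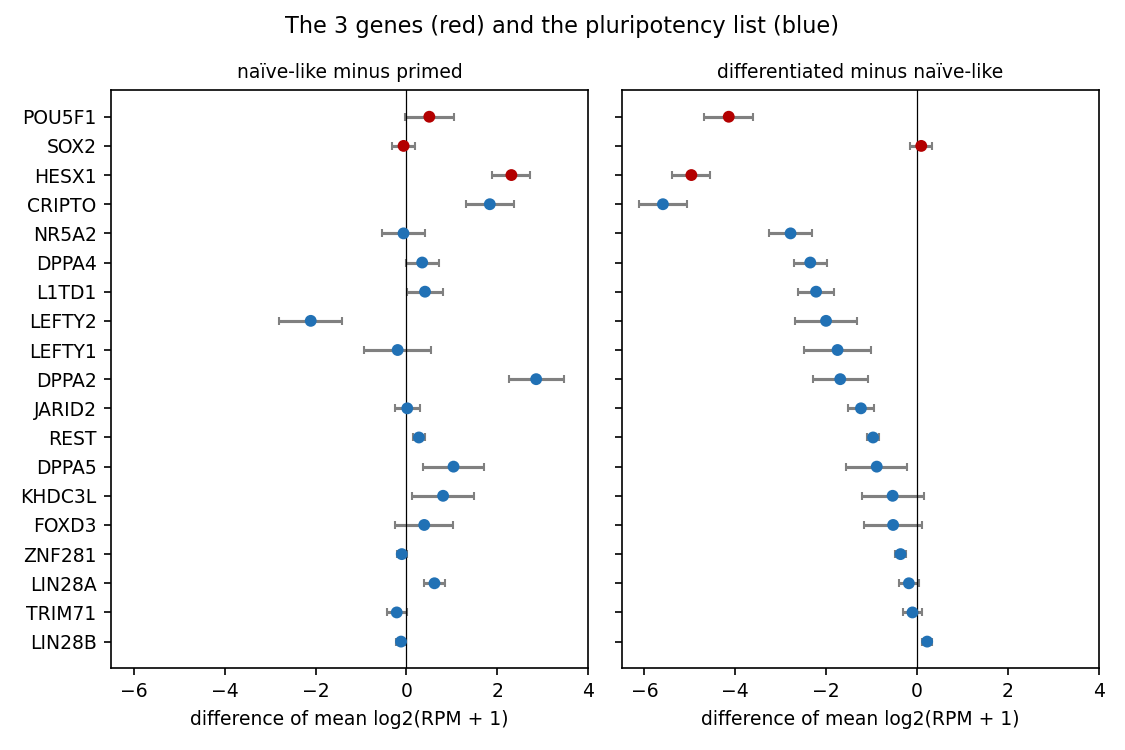
Difference of mean log2(RPM + 1) between naïve-like and primed cells (left) and between differentiated and naïve-like cells (right) for the 3 genes (red) and the 16 tested genes of the pluripotency list (blue). Bars are the SE of the fit over 21 libraries. HESX1, CRIPTO and DPPA2 lie to the right on the left panel, and on the right panel HESX1 and CRIPTO lie farthest to the left while SOX2 lies at 0.09.

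Analysed relatives of the members were read in the same comparisons. Of 5 other analysed POU genes, POU2F1 was lower in naïve-like than in primed cells (-0.83, limma, adjusted p = 0.0481). The neural factors POU3F1 (2.14, SE 0.52, limma, adjusted p = 0.00692) and POU3F2 (1.81, SE 0.58, limma, adjusted p = 0.0372) rose after withdrawal in 7 of 7 lines, where POU5F1 was low. SOX4 and SOX13, the tested members of the SOX family, passed in none of the 3 comparisons, although 1 of them was lower in differentiated than in primed cells without the primed iPS-S12 library. Of 10 other analysed paired-type homeobox genes only PRRX1 passed the expression threshold, and it passed in none of the comparisons. HDAC1, a histone deacetylase and the only tested gene of a list of HESX1 corepressors and forebrain or pituitary genes, differed by -0.70 after withdrawal (SE 0.24, limma, adjusted p = 0.0518), and passed with the line as a replicate block (limma, adjusted p = 0.00187).

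Other cell types' markers were read beside the members. Of 6 tested neural progenitor markers 4 rose after withdrawal, namely NES (0.92), ZIC1 (2.19), HES1 (1.56) and POU3F2, and 0 fell, against 6.41% higher and 7.71% lower of all genes. Between primed and naïve-like cells HES1 fell (-1.43) and PROM1 rose (0.94), the latter not without the primed iPS-S12 library, against 11.1% higher and 8.18% lower of all genes. The 7 analysed neural markers summed to 350 to 614 RPM before conversion, 137 to 464 after it and 427 to 819 after withdrawal. Mesendoderm (2 tested), amnion or trophoblast (3), stromal (5) and hepatocyte or gastric (1) markers passed in neither of these comparisons. With the line as a replicate block EOMES, VTCN1, COL1A2 and NES were lower in naïve-like than in primed cells (limma, adjusted p = 0.0372, 0.0298, 0.000308 and 0.00774), and after withdrawal COL1A2 was higher and TWIST1 lower (limma, adjusted p = 0.0120 and 0.0201). Between differentiated and primed cells the mesendoderm gene EOMES (-3.01) and the stromal gene S100A4 (-2.87) were lower. With the block VTCN1 and S100A6 were also lower there and TFAP2A higher (limma, adjusted p = 0.0376, 0.0200 and 0.0412). The summed stromal markers were 63.9 to 829 RPM before conversion, 40.3 to 264 after it and 11.7 to 273 after withdrawal, against 7872 RPM in liver and 10480.4 RPM in stomach cells. Their part in the levels of POU5F1, SOX2 and HESX1 was not tested.

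The reads were counted without strand, so that a gene and an overlapping gene cannot be told apart. TCF19, listed next to POU5F1, differed by -1.16 between differentiated and naïve-like cells (SE 0.33, limma, adjusted p = 0.0214), and IL17RD, listed next to HESX1, by -1.11 (SE 0.36, limma, adjusted p = 0.0391). Between primed and naïve-like cells IL17RD differed by -0.52 (SE 0.36, limma, adjusted p = 0.334), the other direction from HESX1. The housekeeping gene PPIA stood at 10.01, 10.04 and 9.98 on the log2 scale in the 3 conditions.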

How the data were processed

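SC3-seq libraries (21 PSC, 2 somatic) were prepared from 1 ng RNA and sequenced as single 75 bp reads. The authors deposited RPM, without pooling; the submitters' processing notes name cutadapt 1.3, TopHat 1.4.1 and Cufflinks 2.2.0, and counting was unstranded. Of values under 200 reads, 88.1% to 94.6% per library lay within 0.05 reads of a whole multiple of 1 step, which gave the depth; the others did not, so no count test was used. 1 incomplete row was left out. By gene ID 5564 genes matched the RefSeq annotation and 2851 did not.

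Values were taken as log2(RPM + 1), genes with a value above 4 in at least 1 PSC library were tested with limma 3.58.1 (R 4.3.3, mean-variance trend, all 21 libraries) and p-values were adjusted over 2776 genes, with 0.05 as the threshold. Exact permutations were run in Python 3.11.15 with scipy 1.17.1. The test was checked on simulated data. The members and lists were chosen with earlier results of these data known, and p-values of the members between conditions, though computed, are not given. Named genes are the 3 members, the 5 nearest to each, and up to 6 tested genes per list by lowest adjusted p; LEFTY2, JARID2, ZNF281, LIN28A, TRIM71, TCF19, IL17RD, PPIA and the somatic markers were chosen outside this rule. The 3 conditions share their lines: libraries of the same line deviated together (mean r = 0.27 over 21 pairs, against -0.04 over 126 pairs of other lines). Library numbers run by condition, so batch and condition cannot be told apart. Whether a line's libraries came from separate cultures is not given in the sources used here.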

Additional observations from a re-analysis of the deposited data

Results flagged for a closer look

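In 3 of 17 groups of 7 values the lowest value lay farther from its neighbour than Dixon's 95% critical value for 7 samples allows, as a share of the range, and chance alone would give 0.85 such groups. POU5F1 in primed iPS-S12 (32.8 RPM) had a gap of 0.716 of the range. SOX2 in naïve-like CMK6 (159.6 RPM) had a gap of 0.619. The change of SOX2 from primed to naïve-like CMK6 (-1.63 on the log2 scale) had a gap of 0.604, and it rests on the same library.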

How the results depend on the processing

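For 43 results, 483 alternatives were computed, and 445 kept the direction and the side of the threshold, or for a value without a test or a count stayed within 1 SD or within 1.5 times. The HESX1 difference between naïve-like and primed cells and its change in distance to POU5F1 stayed positive under every alternative run, the latter from 1.52 without iPS-S6 to 2.198 without iPS-S12. With cell line as a replicate block, 724, 550 and 585 genes were called (naïve-like against primed, differentiated against naïve-like, differentiated against primed) in place of 534, 392 and 372, and of the pluripotency list 3 were higher and 1 lower, 0 and 9, and 1 and 9, in place of 2 and 1, 0 and 7, and 0 and 8. Centring libraries on their medians turned the split of the first comparison from 307 higher and 227 lower to 218 and 261, and that of the second from 178 and 214 to 220 and 190. With a pseudocount of 0.1 the HESX1 differences of differentiated cells were -7.07 from naïve-like and -4.64 from primed cells, where 4 libraries at 0 set the value. The r of SOX2 and HESX1 in differentiated cells became 0.11 with that pseudocount and 0.063 after centring. Leaving out each line in turn gave 300 (without iPS-L3; 355 without iPS-L6, 351 without iPS-S6) to 522, 220 (without CMK6) to 346 and 240 (without iPS-S6) to 391 genes. SOX2 between naïve-like and primed cells ran from -0.20 to 0.20. Differences of iPSC from ESC lines ran from -0.27 to 0.15 for primed SOX2, -0.33 to 0.21 for naïve-like HESX1, -0.92 to 0.61 for differentiated HESX1 and -0.87 to 1.10 for differentiated POU5F1. Those of the conversion response ran from -0.13 to 1.07 for SOX2, -0.069 to 0.48 for HESX1 and -0.91 to 0.32 for POU5F1, and those of the withdrawal response from -0.093 to 0.32 for SOX2 and -1.13 to 0.84 for HESX1. Values of r ran from 0.62 to 0.93 for POU5F1 and HESX1 in primed cells and from -0.017 to 0.56 for their conversion changes. They ran from -0.15 to 0.70 for POU5F1 and SOX2 in primed cells, from -0.58 to 0.11 for their withdrawal changes, and from -0.34 to 0.45 for SOX2 and HESX1 in differentiated cells. The causes of these turns were not tested. HESX1 in differentiated cells is limited by depth, with 5 of 7 libraries under 3 reads.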
